A study of Mus musculus with 12 samples.

Results

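The genes described here are Gfra1, Gfra2, Gfra4 and Ret, of receptors for the glial cell line-derived neurotrophic factor (GDNF) family, together with Gdnf itself. They are 5 genes of the 34745 in the study's table, chosen by name. The gene Gfra3 was not among those chosen and was not examined. GDNF family ligands act as secreted dimers. Each binds a co-receptor of the GFRα class, which is anchored to the membrane by a lipid and has no kinase of its own, and the ligand and co-receptor together bring the receptor tyrosine kinase Ret into the complex and activate it. GFRα1 is the preferred co-receptor of GDNF, GFRα2 of neurturin and GFRα4 of persephin. The pathway is best known for the survival of midbrain dopaminergic, motor and sensory neurons, and GDNF given to the spinal cord eases pain behaviour after nerve injury in rodents.

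RNA was sequenced from the medial prefrontal cortex (mPFC), a frontal cortical region involved in how pain is felt and judged, taken from wild-type male mice. In the chronic constriction injury (CCI) model, loose ligatures around the sciatic nerve leave a lasting neuropathic pain state, and tissue was taken on day 28. The groups were the right mPFC of CCI mice, contralateral to the nerve (4 libraries), and their left mPFC (4 libraries). The left is the side of the ligated nerve and is called ipsilateral. The reference group was the mPFC of naive mice (4 libraries), labelled as day 28 of habituation, with no hemisphere labelled. The naive mice had no operation, so surgery and nerve injury cannot be told apart. Every ipsilateral library is from the left and every contralateral library from the right. The side relative to the nerve therefore cannot be told apart from left and right, either between the sides or against naive libraries. The labels name neither strain nor age, and none states outright that libraries with 1 number, such as contralateral 1 and ipsilateral 1, come from the same mouse. They were read so from the library codes. It is not stated either that libraries of 1 group come from separate animals, so p-values measure the spread between these libraries, which may be technical in part.

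Total counts ranged from 16089476 to 20647242 per library. All 8 excitatory neuron markers and all 8 interneuron markers looked for were detected, and the excitatory markers summed to 2258 to 2495 CPM (counts scaled to a common depth, with library sizes scaled by the TMM method) in contralateral, 2457 to 2757 in ipsilateral and 2475 to 2569 in naive libraries. Contralateral 1 stood apart in striatal markers, which summed to 279 CPM there and to 118 to 156 CPM in the other 11 libraries. Markers of dopaminergic neurons, the cells in which Ret is best known, summed to only 8.29 to 12.8 CPM over all libraries. Most of this came from Th and Ddc, while Slc6a3 was at 0 to 0.706 CPM and Slc18a2 at 0 to 0.92 CPM.

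Per unit of length, the co-receptor genes Gfra1, Gfra2 and Gfra4 stood well above Ret, and Gdnf was close to the limit of detection. In the authors' FPKM values (fragments scaled to gene length and to sequencing depth), Gfra2 ranged from 30.8 to 40.2 FPKM over the 12 libraries, Gfra4 from 6.31 to 10.6, Gfra1 from 2.79 to 3.97, Ret from 0.507 to 0.798 and Gdnf from 0 to 0.16. The ranges of neighbours in this order did not overlap. The order held in each of the 3 groups.

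The spacing of these levels depends on the length used. The lengths implied by the authors' FPKM and counts were 12133 bases for Gfra1 and 4931 for Gfra4, whereas the merged exons of the GENCODE M21 annotation (GRCm38) cover 5476 and 2165 bases. For Gfra4 the implied length exceeds the whole gene, which spans 3457 bases. Over 13157 genes with 500 or more counts in all, 5.91% had an implied length longer than their own span. With the merged exon length, the median level was 34.6 for Gfra2, 16.5 for Gfra4, 7.57 for Gfra1, 0.663 for Ret and 0.0458 for Gdnf on the same scale, so the order was the same and Gfra4 and Gfra1 came closer to Gfra2. A length scales a gene equally in every library and does not touch the comparisons between groups.

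**Figure D1:**
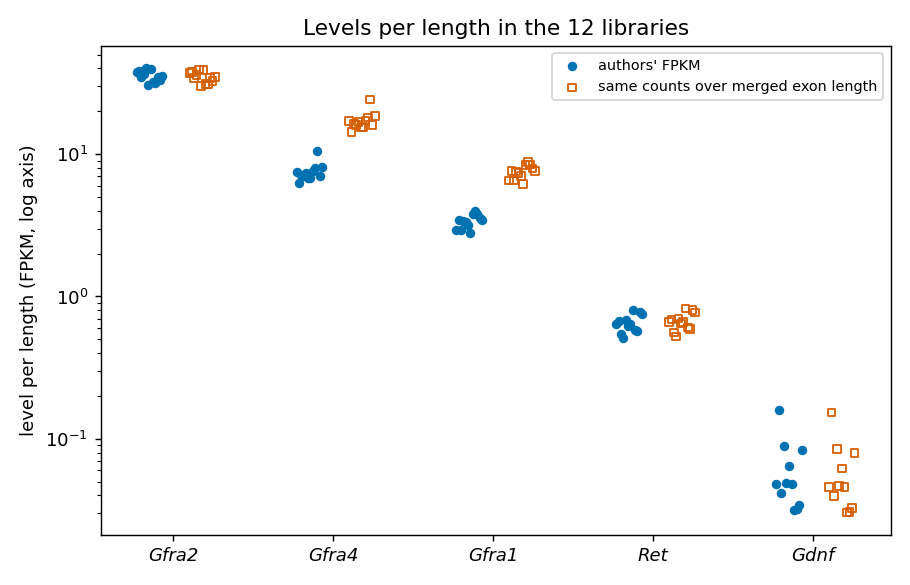
Levels per length of the 5 genes in the 12 libraries, on a log axis, as the authors' FPKM (filled) and as the same counts divided by the merged exon length (open squares); the library with 0 counts of Gdnf is not drawn. Gfra2 is highest in both, Gfra4 and Gfra1 lie between, and Ret and Gdnf are below 1.

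Gdnf (ENSMUSG00000022144; chromosome 15, 7811011 to 7837575, GRCm38), the ligand, had 10, 5, 4 and 2 counts in contralateral libraries 1 to 4, 3 counts in each ipsilateral library, and 2, 0, 2 and 5 counts in naive libraries 1 to 4. The summed level was 0.302 CPM in contralateral libraries (exact Poisson 95% interval 0.187 to 0.462, counting error only), 0.163 in ipsilateral (0.084 to 0.284) and 0.131 in naive ones (0.06 to 0.249). These intervals overlap, which is not a test of a difference. Of the 21 contralateral counts, 10 came from contralateral 1, the library with the high striatal markers; the part of those markers in the Gdnf counts was not tested. Without it the contralateral level was 0.213 CPM (0.106 to 0.381).

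Gdnf did not pass the filter on low counts and was not tested in the fits behind the other genes' values. In a fit without that filter its log2 fold change was 1.15 (SE 0.68) for contralateral against naive, 0.32 (SE 0.74) for ipsilateral against naive and 0.84 (SE 0.65) for contralateral against ipsilateral. In that order, edgeR gave unadjusted p = 0.108, 0.675 and 0.215 and adjusted p = 0.954, 0.985 and 0.777. A difference between groups was not detectable at this depth. Of the other ligands, neurturin (Nrtn) had 7 to 15 counts in a library and a median of 0.662 FPKM, close to the 0.643 FPKM of Ret and above the 0.048 FPKM of Gdnf. The closeness to Ret rests on the authors' lengths, and the merged exon length of Nrtn was not computed. Before division by length the medians were 0.682 CPM for Nrtn and 4.55 CPM for Ret. Artemin (Artn) had 5 to 14 counts and a median of 0.109 FPKM. Persephin (Pspn) had 0 counts in all 12 libraries. Taking 3 counts over a group's summed libraries as the limit that a count of 0 allows, this is 0.0432 CPM for the contralateral, 0.0406 for the ipsilateral and 0.0437 for the naive group, while the upper bounds of the exact Poisson 95% interval used for Gdnf are 0.0531, 0.05 and 0.0538 CPM in the same order.

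Gfra1 (ENSMUSG00000025089; chromosome 19, 58235604 to 58455909), the co-receptor that GDNF prefers, had a lower mean in CCI cortex, most so on the ipsilateral side, but did not pass the test over all genes. Its level was 40.6, 41.5, 38.2 and 45.5 CPM in contralateral libraries 1 to 4, 36.4, 35.7, 40.6 and 34.3 CPM in ipsilateral libraries 1 to 4, and 47.8, 46.1, 43.4 and 41.6 CPM in naive libraries 1 to 4. All 4 ipsilateral libraries lay below all 4 naive ones, which held for 2.76% of tested genes; 1.94% lay above without overlap, none of them a member. Of the contralateral libraries, 3 lay below every naive library, contralateral 2 only just, and contralateral 4 lay among them. No member was free of overlap between contralateral and naive libraries, where 1.04% of tested genes were so with higher and 1.16% with lower values, or between contralateral and ipsilateral libraries, where it was 1.61% higher and 1.33% lower.

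The mean of Gfra1 was 36.7 ± 2.74 CPM in ipsilateral and 44.7 ± 2.76 CPM in naive libraries (n = 4 in each group, SD). The difference was -17.9%, or -0.28 as a log2 fold change (SE 0.07; 95% interval -0.44 to -0.13; edgeR unadjusted p = 0.00156 and adjusted p = 0.789). In contralateral libraries it was 41.5 ± 3.01 CPM, a log2 fold change against naive of -0.11 (SE 0.07; interval -0.26 to 0.05; edgeR adjusted p = 1). Without contralateral 3 it was -0.067 and without naive 1 it was -0.07. Contralateral against ipsilateral gave 0.18 (SE 0.07; interval 0.02 to 0.33; edgeR adjusted p = 0.592). Number by number, right exceeded left for mice 1, 2 and 4, by 0.16, 0.22 and 0.41 on the log2 scale, while mouse 3 stood at -0.09 (exact sign-flip p = 0.25, two-sided, where 0.125 is the smallest that 4 mice allow). The span of Gfra1, introns included, overlaps that of the antisense gene Gm16277 by 444 bases, and the strand setting of the counting is not given. That antisense gene had 0 to 5 counts in a library.

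Gfra2 (ENSMUSG00000022103; chromosome 14, 70890130 to 70979838), the co-receptor of neurturin, lay the other way on the ipsilateral side. Its level was 130, 127, 106 and 110 CPM in contralateral libraries 1 to 4, 133, 122, 140 and 140 CPM in ipsilateral libraries 1 to 4, and 109, 120, 116 and 123 CPM in naive libraries 1 to 4. Ipsilateral 1, 3 and 4 were above every naive library. Of the contralateral libraries, 1 and 2 lay above the naive range, 3 below it and 4 at its lower end. The 5 oligodendrocyte markers split the contralateral libraries the same way, at 3635 and 4023 CPM in contralateral 1 and 2, against 1774 and 1737 CPM in contralateral 3 and 4, but ran from 3402 CPM in ipsilateral 1 to 1749 CPM in ipsilateral 4, where Gfra2 was not lower; their part in the Gfra2 values was not tested.

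Gfra2 averaged 134 ± 8.72 CPM in ipsilateral and 117 ± 6.26 CPM in naive libraries (n = 4 in each group, SD). The log2 fold change was 0.195 (SE 0.08; 95% interval 0.03 to 0.36; edgeR unadjusted p = 0.0209 and adjusted p = 0.972). For the contralateral libraries, at 118 ± 12.1 CPM, the log2 fold change against naive was 0.02 (interval -0.14 to 0.18; edgeR adjusted p = 1), and it was negative without contralateral 1, without contralateral 2 and without naive 1. Contralateral against ipsilateral gave -0.18 (interval -0.34 to -0.02; edgeR adjusted p = 0.592), from mice 3 and 4 (-0.40 and -0.35) rather than mice 1 and 2 (-0.03 and 0.07).

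Gfra4 (ENSMUSG00000027316; chromosome 2, 131039632 to 131043088), the co-receptor of persephin, had a lower mean on both sides of CCI cortex, but this rested in large part on naive 2. Its level was 30.4, 34.7, 33.2 and 37 CPM in contralateral libraries 1 to 4, 37.5, 35.1, 36.5 and 34.1 CPM in ipsilateral libraries 1 to 4, and 38.9, 52, 34.7 and 40.3 CPM in naive libraries 1 to 4. Naive 3 lay within the range of both CCI groups and naive 2 far above every other library. The log2 fold change was -0.29 (SE 0.10; 95% interval -0.52 to -0.07; edgeR unadjusted p = 0.0139 and adjusted p = 1) for contralateral against naive and -0.21 (SE 0.10; interval -0.44 to 0.01; edgeR adjusted p = 0.972) for ipsilateral against naive. Without naive 2 these became -0.17 and -0.085. Between the sides the log2 fold change was -0.08 (interval -0.31 to 0.14; edgeR adjusted p = 0.84). The annotation places a microRNA gene, Mir6973b, within Gfra4 on the same strand.

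Ret (ENSMUSG00000030110; chromosome 6, 118151745 to 118197718), the signalling kinase, showed no group difference larger than its spread. Its level was 4.55, 3.56, 4.36 and 5.53 CPM in contralateral libraries 1 to 4, 4.57, 3.78, 4.77 and 4.54 CPM in ipsilateral libraries 1 to 4, and 4.07, 4, 5.44 and 5.21 CPM in naive libraries 1 to 4. The 3 groups overlapped throughout. The log2 fold change was -0.05 (95% interval -0.39 to 0.29; edgeR adjusted p = 1) for contralateral against naive, -0.085 (interval -0.42 to 0.25; edgeR adjusted p = 0.98) for ipsilateral against naive and 0.03 (interval -0.31 to 0.37; edgeR adjusted p = 0.968) between the sides. Ret rested on 57 to 100 counts in a library. Counting error alone gives a coefficient of variation of 11.2% at its mean count, beside 13.9% measured over the 12 libraries, so differences inside these intervals were not detectable at this depth. For Gfra1 the same values were 3.72% and 10.4%, and for Gfra2 2.15% and 9.45%.

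**Figure D2:**
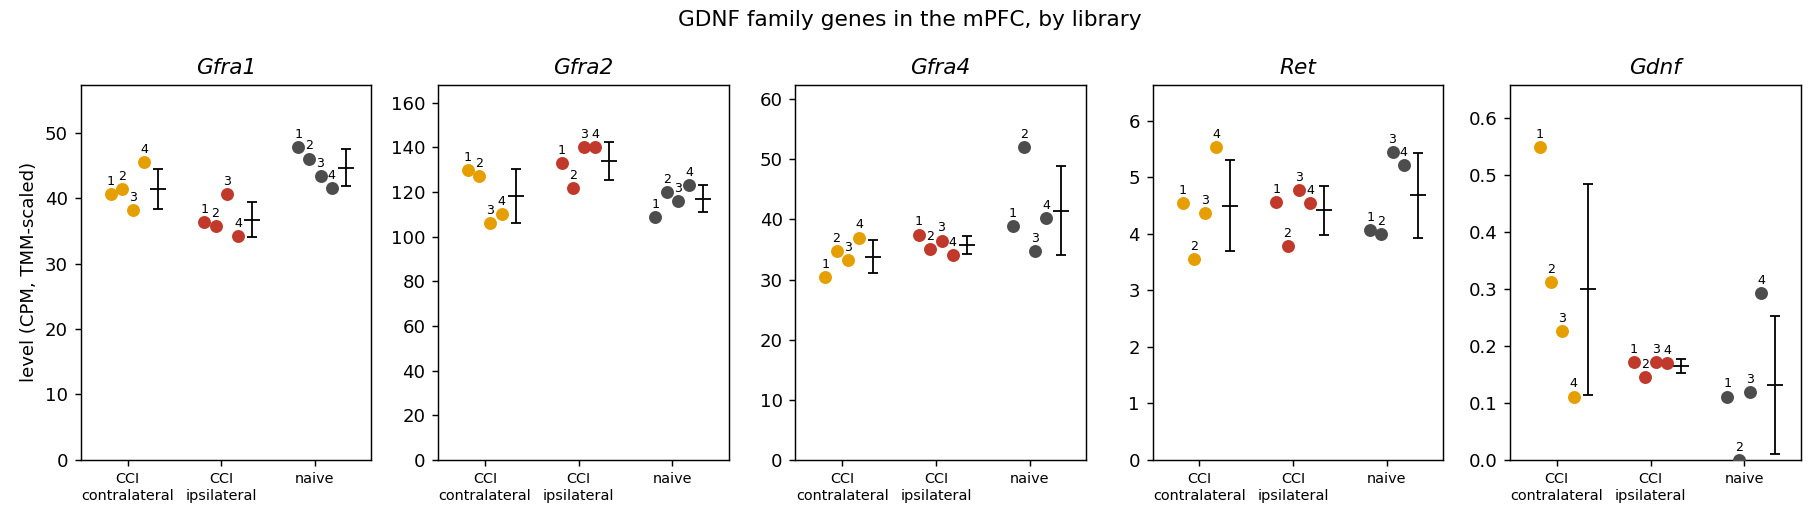
Level of each gene in CPM with TMM scaling, by group; points are libraries with their number, and the black bar is the mean with its SD (n = 4). The ipsilateral points of Gfra1 all lie below the naive ones, ipsilateral 1, 3 and 4 lie above the naive ones for Gfra2, and naive 2 stands out at 52 CPM for Gfra4.

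At the level of animals, with the counts of both hemispheres summed, CCI mice had a lower mean of Gfra1 and a higher mean of Gfra2, by small amounts that did not pass the test over all genes. These mice hold the same libraries as the comparisons by side, so the values are not independent of them. Gfra1 was at 38.5, 38.3, 39.5 and 40.1 CPM in CCI mice 1 to 4, against 47.8, 46.2, 43.4 and 41.6 CPM in naive mice 1 to 4, and the groups did not overlap. The log2 fold change was -0.20 (SE 0.05; 95% interval -0.32 to -0.08; edgeR unadjusted p = 0.00421 and adjusted p = 0.92), a level 12.7% lower. Gfra2 was at 131.6, 124.3, 123.3 and 125 CPM in CCI mice 1 to 4, against 108.6, 120.6, 115.8 and 122.9 CPM in naive mice 1 to 4, where CCI mouse 3 and naive mouse 4 came close to meeting. Its log2 fold change was 0.11 (SE 0.05; interval 0.001 to 0.22; edgeR unadjusted p = 0.0483 and adjusted p = 1). Of all tested genes, 1.5% were lower and 1.22% higher in CCI mice with no overlap. CCI mice were more alike than naive mice in Gfra1 (coefficient of variation 2.13% and 6.21%), each CCI value being the sum of 2 libraries.

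Gfra4 was at 33.8 to 35.7 CPM in CCI mice and at 34.7 to 52.1 CPM in naive mice (log2 fold change -0.25, SE 0.10; edgeR adjusted p = 1), and without naive mouse 2 it stood at -0.13. Ret was at 3.69 to 5.06 CPM in CCI mice and 4.01 to 5.43 CPM in naive mice, a log2 fold change of -0.07 (SE 0.14; interval -0.38 to 0.25; edgeR adjusted p = 1).

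Of the 5 genes, 4 were tested and 0 passed at an adjusted p under 0.05 in any of the 4 comparisons with edgeR, limma voom or DESeq2. Over all genes, edgeR and limma voom called 0% in each comparison, and DESeq2 0.019% for contralateral against naive, 0.0645% for ipsilateral against naive, 0% between the sides and 0.199% for CCI against naive mice. At an unadjusted p under 0.05 there was 1 gene for contralateral against naive (Gfra4, lower; of 15808 genes 3.78% passed, 1.92% higher and 1.86% lower), 2 for ipsilateral against naive (Gfra1 lower, Gfra2 higher; 4.83% of genes, 1.87% higher and 2.96% lower), 2 between the sides (Gfra1 higher, Gfra2 lower on the contralateral side; 8.36% of genes, 4.58% higher and 3.78% lower) and 3 for CCI against naive mice (Gfra1 and Gfra4 lower, Gfra2 higher; 4.2% of 16179 genes, 1.8% higher and 2.4% lower). These counts are not independent, because the comparisons share the naive or the ipsilateral libraries, and the family was picked with an earlier result for Gfra1 in view.

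**Figure D3:**
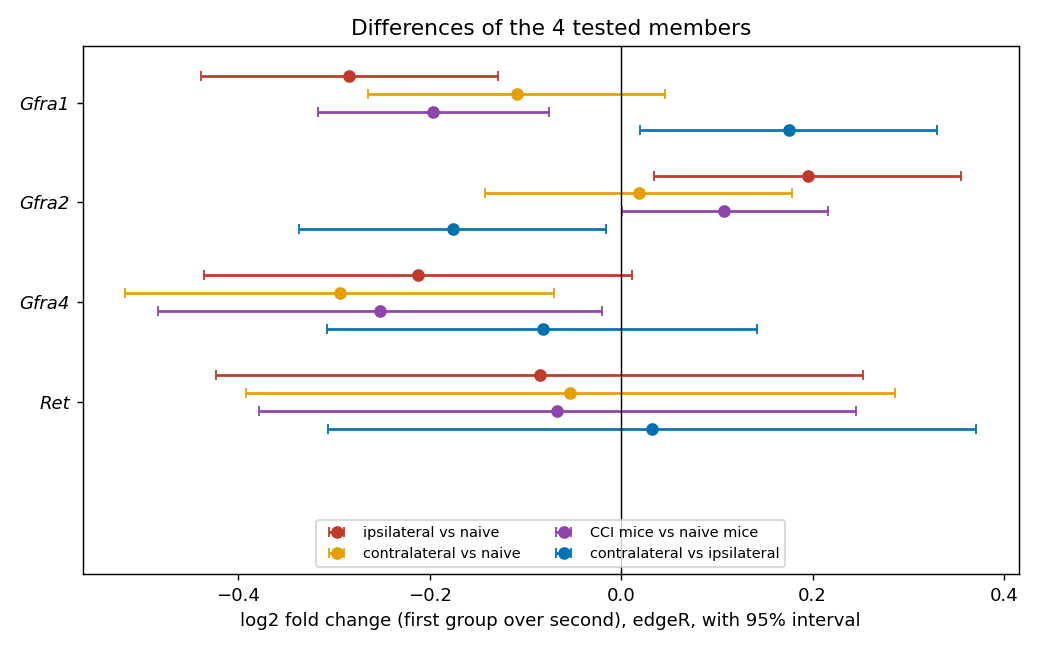
Log2 fold changes of the 4 tested genes in the 4 comparisons (edgeR), with bars for the 95% interval, not adjusted for the number of genes. The Gfra1 intervals lie below 0 for ipsilateral and CCI mice against naive, those of Gfra2 for the same comparisons lie above 0, and all 4 Ret intervals span it.

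The balance between Gfra1 and Gfra2, the co-receptors of GDNF and neurturin, was compared within each library, where depth and scaling cancel. With the authors' lengths, the log2 ratio of Gfra1 to Gfra2 was -3.49, -3.42, -3.28 and -3.08 in contralateral libraries 1 to 4, -3.68, -3.58, -3.60 and -3.84 in ipsilateral libraries 1 to 4, and -2.99, -3.19, -3.22 and -3.37 in naive libraries 1 to 4. Every ipsilateral library was below every naive and every contralateral one. The share of other gene pairs whose ratio separates in this way was not computed, and the shares given for single genes do not apply to a ratio. Contralateral 3 and 4 lay within the naive range and contralateral 1 and 2 below it.

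As a linear ratio with the same lengths, Gfra1 stood at 0.0784 of Gfra2 in ipsilateral libraries, against 0.109 in naive ones. The log2 difference between ipsilateral and naive was -0.48 (means -3.67 ± 0.12 and -3.19 ± 0.16, SD, n = 4 each; exact permutation p = 0.0286, two-sided, the smallest that 70 arrangements can give). For contralateral against naive it was -0.12 (exact permutation p = 0.314), and for CCI against naive mice -0.30 (means -3.50 ± 0.06 and -3.19 ± 0.16, SD, n = 4 each; exact permutation p = 0.0286). Contralateral exceeded ipsilateral in all 4 mice, by 0.35 on average (exact sign-flip p = 0.125, the smallest that 4 mice allow). Without mouse 4 this average was 0.22. As every ipsilateral ratio lay below every contralateral one, any matching of the libraries would give all 4 differences this sign and the same p. Adjusted over the 8 ratio tests, p was 0.114 for both differences of smallest p, so neither passed. With any 1 CCI mouse left out, the exact permutation p for mice was 0.0571. The ratio was chosen with the Gfra1 result known, and it combines 2 genes that each differed at an unadjusted p under 0.05 in the same comparison.

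**Figure D4:**
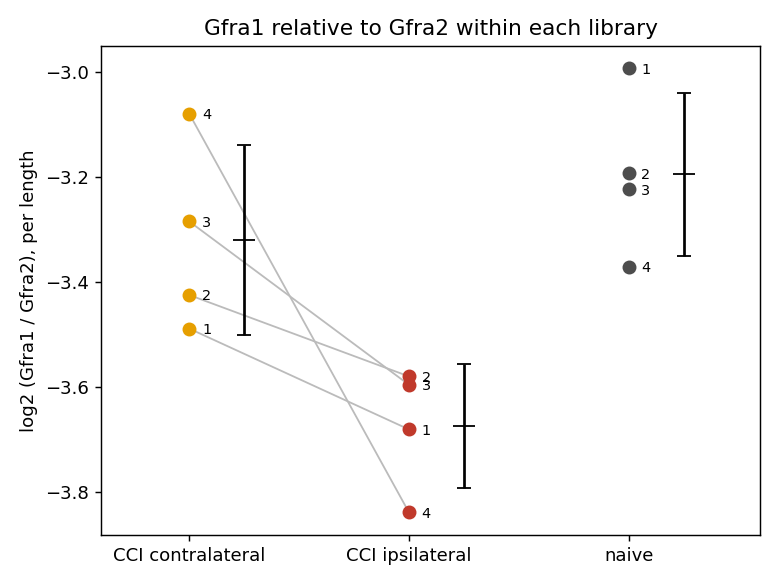
Log2 ratio of Gfra1 to Gfra2 per length in each library; grey lines join right and left libraries of 1 number, and black bars are means with SD (n = 4). The ipsilateral libraries lie between -3.84 and -3.58, below all others, and each line falls towards the ipsilateral side.

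For the ratio of Gfra1 to Ret, all 3 groups overlapped. With the authors' lengths, Gfra1 was at 5.3 times Ret in contralateral, 4.75 times in ipsilateral and 5.49 times in naive libraries. With merged exon lengths the log2 ratio was higher, from 3.33 to 3.83 in contralateral, 3.21 to 3.53 in ipsilateral and 3.29 to 3.84 in naive libraries. The length cancels between groups, and the log2 differences were -0.05 for contralateral against naive (exact permutation p = 0.971), -0.21 for ipsilateral against naive (p = 0.286 by the same exact test), 0.16 between the sides, with the contralateral side higher in all 4 mice (exact sign-flip p = 0.125, again the smallest that 4 mice allow), and -0.12 for CCI against naive mice (exact permutation p = 0.429).

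Among the lists of cell type markers, only that of astrocytes differed between groups without overlap, in ipsilateral against naive libraries. In bulk tissue, fewer cells of a type and less RNA per cell cannot be told apart. The 5 astrocyte markers summed to 1234 to 1331 CPM in ipsilateral libraries, below the 1339 to 1547 CPM of naive libraries, and to 1245 to 1784 CPM in contralateral ones. The 6 meningeal and fibroblast markers summed to 14.4 to 50 CPM in contralateral, 18.3 to 37.4 in ipsilateral and 31.7 to 44.5 in naive libraries, and the 8 interneuron markers to 901 to 986, 920 to 1069 and 908 to 977 CPM in the same order. Microglia markers summed to 195 to 279, 178 to 207 and 202 to 246 CPM in that order. For endothelial markers the sums were 114 to 164, 116 to 133 and 124 to 151 CPM. In contralateral libraries 1 to 4, astrocyte markers summed to 1452, 1245, 1637 and 1784 CPM and microglia markers to 217, 195, 247 and 279 CPM. Contralateral 4, the highest contralateral library for Gfra1, was thus the highest in both lists, but contralateral 3, the lowest for Gfra1, was the next highest in both. The part of these cell types in the co-receptor results was not tested. Summed over both hemispheres, astrocyte markers ranged from 1290 to 1517 CPM in CCI mice and from 1338 to 1550 CPM in naive mice.

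The other genes of the pathway were centred near 0 in every comparison. Of 42 genes listed as ligands, co-receptor relatives, other receptors and partners, adaptors and enzymes downstream of Ret, and target or feedback genes, 38 were tested in the libraries and 39 in the mice, and 0 passed in either direction in any of the 4 comparisons. Their median log2 fold change was -0.02 for contralateral against naive, 0.02 for ipsilateral against naive, -0.03 between the sides and 0.00 for CCI against naive mice, where all tested genes had medians of 0.00, 0.00, 0.01 and 0.00.

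Alternative partners of GDNF were abundant. Ncam1, the neural cell adhesion molecule that can bind GDNF with GFRα1 in the absence of Ret, was at 20 to 24 FPKM over the 12 libraries, and Sdc3, a heparan sulfate proteoglycan that binds GDNF, at 32.6 to 45.2 FPKM. Both exceeded Ret by more than an order of magnitude on the scale per length. Gas1, a relative of the GFRα co-receptors, was at 1.15 to 2.62 FPKM, and Gfral, the co-receptor of GDF15 in the hindbrain, had 0 counts in every library. Sorl1, a sorting receptor for GDNF and GFRα1, averaged 411 ± 67.4 CPM in contralateral and 513 ± 50.5 CPM in ipsilateral libraries (SD, n = 4 each; log2 fold change -0.32, SE 0.12; edgeR adjusted p = 0.592). Sdc3 stood at 0.17 in the same comparison (edgeR adjusted p = 0.602).

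Among the feedback and adaptor genes, 3 had the smallest unadjusted p for CCI against naive mice. Spry2, an inhibitor of receptor tyrosine kinase signalling that such signalling induces, was at 45.7 to 48 CPM in contralateral, 46.2 to 49.8 CPM in ipsilateral and 40.6 to 46 CPM in naive libraries, with a log2 fold change in mice of 0.14 (SE 0.05; edgeR unadjusted p = 0.0178 and adjusted p = 1). The ipsilateral Spry2 values lay above all naive ones, as did those of 1.94% of tested genes, and contralateral 1 lay just inside the naive range. In mice, the other target and feedback genes stood at -0.05 (Etv1), -0.03 (Spry1), -0.002 (Dusp6), 0.022 (Etv4) and 0.032 (Etv5). The sides differed more. With Spry2 included, the median of the 6 target and feedback genes was -0.058 for contralateral against naive (4 negative). It was 0.086 for ipsilateral against naive (5 positive) and -0.125 between the sides (5 negative), and 0 passed in each. Mapk3, which encodes the kinase ERK1, stood at -0.28 (SE 0.13; edgeR adjusted p = 0.972) for ipsilateral against naive, 0.28 (SE 0.13; edgeR adjusted p = 0.592) between the sides and -0.12 (edgeR adjusted p = 1) in mice. Mapk3 was at 93.5 CPM in contralateral 2 and at 130 to 145 CPM in the other contralateral libraries. The ipsilateral values of Mapk3, and those of Sdc3 and Src, lay below all naive ones, as did those of 2.76% of tested genes. Dok5, an adaptor that binds activated Ret, stood at 0.12, 0.19 and 0.16 for contralateral, ipsilateral and CCI mice against naive (edgeR adjusted p = 1, 0.972 and 1). Grb10 completed the genes of smallest p for contralateral against naive, at 0.09 (edgeR adjusted p = 1).

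**Figure D5:**
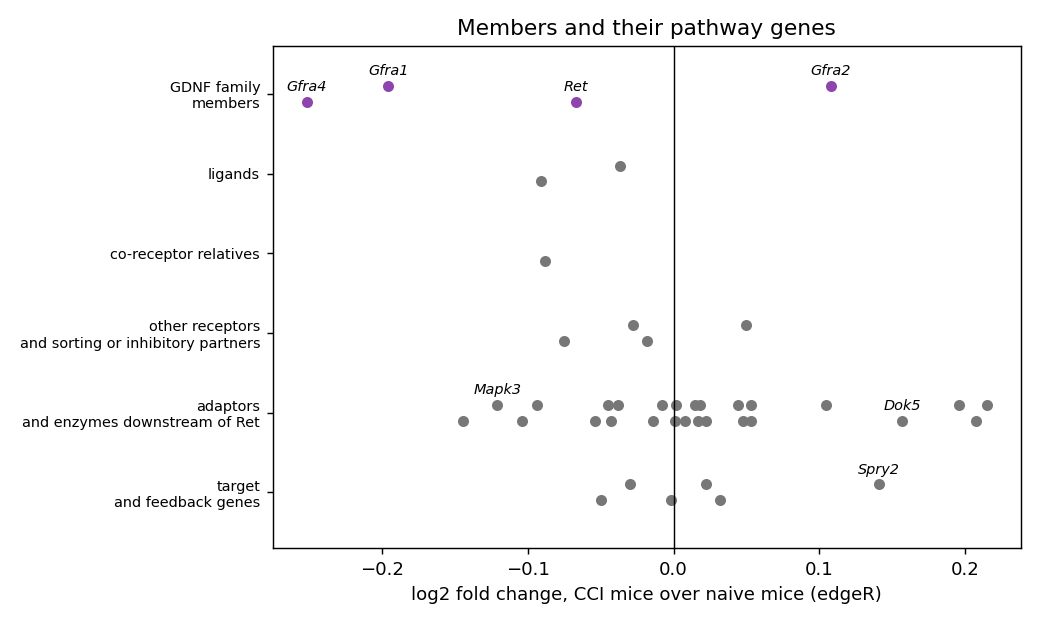
Log2 fold changes in CCI over naive mice (edgeR) of the 4 tested family genes (purple) and of the 39 tested pathway genes by role (grey), with 3 pathway genes of smallest p named. The pathway genes lie between -0.15 and 0.22, and Gfra4 and Gfra1 lie to the left of them.

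The genes whose level over the 8 mice was most like that of a member were sought among 11252 or 11253 genes. For Gfra1 they were Clmp (Pearson r = 0.97), Dmap1 (0.95) and Klf3 (0.95). For Gfra2 they were Osbpl7 (0.97), Zc3h8 (0.94) and Tmub1 (0.93), for Gfra4 Ipmk (0.93), Dcp1b (0.93) and Fam89b (0.92), and for Ret Raver2 (0.99), Mlec (0.97) and Ttc4 (0.96). The Spearman correlations were 0.93 to 0.95 for the Gfra1 and 0.95 to 0.98 for the Ret neighbours, but 0.5 to 0.69 for those of Gfra4. With 8 mice and so many candidates, values of this size describe the data and carry no test.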

How the data were processed

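The authors deposited a table of raw counts per gene and library, with FPKM values beside them, and a second table with the same counts and text annotation, which was not used. Per the submitters' processing notes, HISAT2 2.0.4 and GRCm38/mm10 were used; no source used here gives their roles, the counting program, its strand setting or the annotation. Per the labels, libraries were made from total RNA with an mRNA kit. FPKM as deposited followed count over length and total count.

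Counts were tested with edgeR 4.0.16 (R 4.3.3; TMM, filterByExpr, robust quasi-likelihood, Benjamini-Hochberg over all tested genes, threshold 0.05), two-sided. One fit held all 12 libraries in 3 groups (15808 genes), another the summed hemispheres of each CCI number with the naive libraries (16179 genes). SE was the fold change divided by the root of F. CPM used TMM factors. Ratios added 1 to each count. The fits were tested on simulated data, at the same threshold. Over the 4 comparisons they recovered 67.3% to 85% of true log2 changes of 1 and 39.4% to 49.5% of changes of 0.5. Each simulated comparison held 98 to 100 changed genes of each size, and 6 or 7 unchanged genes were called. Changes in a few genes alone were not simulated, and recovery depends on how many genes change. Changes smaller than 0.5, the size of those of the tested members, were not simulated either. DESeq2 1.42.0, limma 3.58.1, other scaling and filters, a replicate block and leaving out each library were alternatives.

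Same-numbered libraries did not deviate together: correlations between hemispheres were 0.01, -0.14, 0.04 and 0.06. Coordinates are those of the deposited table; those of GENCODE M21 differ for Gdnf and Gfra2. The family, lists and tests were chosen with earlier results of these data known. Named genes were the 5 members, per comparison the 3 pathway genes of smallest p, and per tested member the 3 genes of highest correlation over the mice, with a mean of 5 CPM or more and no predicted models.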

Additional observations from a re-analysis of the deposited data

Results flagged for a closer look

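Over 135 groups of 4 libraries (the members, both ratios and the tested pathway genes), 8 held a library far from the others by Dixon's criterion, which chance gives in about 1 group in 20. Gdnf in ipsilateral 2 was at 0.145 CPM beside 0.17 to 0.172 in the other ipsilateral libraries; all 4 had 3 counts, and ipsilateral 2 the highest total count. Grb2, the adaptor that links Ret to Ras, was at 61 CPM in ipsilateral 2 (131 to 142 in the others) and at 67 CPM in naive 4 (131 to 139 in the others). Pik3r1 was at 187 CPM in naive 3 (156 to 158 in the others), Ptpn11 at 235 CPM in ipsilateral 1 (213 to 217) and Rap1gap at 267 CPM in naive 1 (212 to 221). Spry2 was at 45.7 CPM in contralateral 1 (47.9 to 48) and Etv4 at 7.97 CPM in naive 1 (9.14 to 9.3).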

How the results depend on the processing

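The count of family members past the threshold was 0 in all 4 comparisons under every alternative run: RLE and upper quartile scaling, no filter, DESeq2, limma voom, only the compared groups, the replicate block, and each library or mouse left out. The replicate block tied libraries of equal number across all groups, although naive and CCI libraries come from different mice, so it is no pairing against naive. With it, Gfra1 stood at -0.28 for ipsilateral against naive (edgeR adjusted p = 0.989). A fit of both hemispheres alone with the block, added after seeing the data, gave 0.17 for Gfra1 between the sides (edgeR adjusted p = 0.821). The block changed no call. For Gfra1 ipsilateral against naive, adjusted p ranged from 0.237 (DESeq2) to 0.989 with all compared libraries kept, and the fold change from -0.33 to -0.25 with a library left out.

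Directions turned only with a library or mouse left out. Gfra2 contralateral against naive (0.02) was -0.029 with contralateral 1 left out, -0.013 with contralateral 2 and -0.009 with naive 1 left out (range -0.029 to 0.072). Ret ranged from -0.164 to 0.047 for contralateral against naive (0.047 without contralateral 2, 0.027 without naive 3, 0.008 without naive 4), from -0.081 to 0.13 between the sides (-0.033 without ipsilateral 2, -0.081 without contralateral 4) and from -0.135 to 0.015 in mice (0.015 without CCI mouse 2, 0.012 without naive mouse 3). The ratio of Gfra1 to Ret for contralateral against naive ranged from -0.156 to 0.045 (0.009 without contralateral 4, 0.045 without naive 1, 0.035 without naive 2). The Gfra1 to Gfra2 ratio in mice ranged from -0.362 to -0.236, and it was -0.276, -0.3, -0.319 and -0.319 without CCI mouse 1, 2, 3 and 4 (exact permutation p = 0.0571 each). With a library left out it ranged from -0.204 to -0.057 for contralateral against naive, and the Gfra1 to Ret ratio from -0.299 to -0.114 for ipsilateral against naive and from -0.213 to -0.028 in mice. Depth limits Gdnf and Ret.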

Other observations

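Grb2, which stands downstream of Ret and many other receptors, took 2 separate levels that did not follow the groups; it was singled out after its values were seen. It was at 61, 61.3, 61 and 67 CPM in contralateral 2, contralateral 4, ipsilateral 2 and naive 4, and at 128 to 142 CPM in the other 8 libraries. The gap was wider than the spread within either level. In the annotation, the span of Grb2, introns included, overlaps that of a processed pseudogene, Gm11702, by 69 bases. No counts are given for Gm11702, and its part in the Grb2 values was not tested.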
